A study of Canis lupus familiaris with 7 samples.

Results

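The proteasome is the barrel-shaped protease that degrades proteins tagged with ubiquitin, and in heart muscle it removes damaged and worn-out sarcomeric and cytosolic proteins. Its core particle is built from rings of alpha subunits (PSMA genes), which gate the entrance, and beta subunits (PSMB genes), of which PSMB5, PSMB6 and PSMB7 cut the substrate. The regulatory particle that caps the core holds a ring of ATPases (PSMC genes), which unfold the substrate, and non-ATPase subunits (PSMD genes), which bind and remove ubiquitin. Under interferon the catalytic subunits can be replaced by PSMB8, PSMB9 and PSMB10, which form the immunoproteasome, and PSME genes encode alternative activators of the core.

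Probe sets were taken as proteasome probe sets when the platform annotation gave them 1 gene symbol that begins with PSM, a letter from A to G and a digit. This held for 89 of the 42924 probe sets of the canine array, and they name 44 genes. Of these, 5 probe sets belong to PSMC3IP and PSME3IP1, which encode proteins named for their binding to a proteasome protein and are not subunits, so they were set apart. The remaining 84 probe sets of 42 genes were the members described here. The filter on dim probe sets left 75 of them, for 40 genes, and the 9 others were not tested. PSMA8 (a germ cell alpha subunit) and PSMB11 (the beta subunit of the thymus) had no tested probe set. A further 8 probe sets with several symbols, among them the PSMA1 copies, were left out. PSMB7, PSMC1, PSMD1, PSMD4, PSMD5 and PSMG4 were not analysed here.

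The samples were left ventricle of adult male mongrel dogs. Low-salt dogs (4 arrays, numbered 1 to 4) ate a diet with 0.5% sodium chloride for 2 weeks, and control dogs (3 arrays, numbered 1, 3 and 4) have no diet recorded in the sample information used here. The design text speaks of more dogs on the diet than there are low-salt arrays, and whether RNA was pooled is not given. The labels do not say whether arrays stand for different animals, and p-values then reflect only the scatter of these samples, which may be technical. The comparison asked which ventricular transcripts differ when dietary salt is low.

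Signals are given as log2(intensity + 16) after quantile normalization, and each change is low salt minus control on that scale, which understates the change of dim probe sets. A change carries its SE from limma, and adjusted p-values were taken over all 28616 tested probe sets. Cardiomyocyte markers bore out the tissue label: 14 of 15 were tested, and the dimmest, MYBPC3, had a median deposited intensity of 1511. In whole ventricle, fewer cells of a type and less RNA per cell cannot be told apart. The arrays of low salt 3 and control 4 stood apart from the other 5. Their median deposited intensities, 44.2 and 51.3, were the highest of their groups, where the other low-salt arrays lay between 19.3 and 21.8 and the other controls at 31.5 and 39.6. Over all tested probe sets their deviations from the group means correlated at 0.43, against 0.14 at most for the other pairs of a low-salt and a control array. Some results that rest on these arrays are also given without control 4, low salt 3 or both, and others are given only with them. A measure of RNA integrity also separated the groups, with GAPDH 3' to 5' ratios of 2.27 ± 0.17 in low salt (SD, n = 4) and 2.58 ± 0.18 in controls (SD, n = 3; p = 0.0571 by an exact permutation test, two-sided, with 0.0571 the lowest p this design can reach). A second GAPDH pair gave 17.7 ± 3.46 in low salt and 29.3 ± 10.0 in controls with the same p, and actin overlapped between the groups. The part of RNA integrity in the results below was not tested.

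No proteasome probe set passed an adjusted p of 0.05 by limma, 0 of 75, where 0.346% of all tested probe sets did. By the methods' t-test, at the unadjusted p and 2-fold change that the design text names, 1 of 75 passed, PSMD3, against 3.04% of all tested probe sets, and 0 passed after Benjamini-Hochberg adjustment. At an unadjusted p under 0.05 stood 9 of the 75 (12%), 6 higher and 3 lower, against 11% of all tested probe sets (5.27% higher and 5.78% lower). That count is near the background and is not a result about the proteasome. The signs leaned upward: 56 of 75 changes were above 0 (74.7%), against 53.8% of all tested probe sets. The groups did not overlap in 8 probe sets that were higher in low salt and in 1 that was lower, against 5.13% and 5.68% of all tested probe sets.

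With the brightest tested probe set standing for each gene, the median change of the 40 proteasome genes was 0.15, against 0.05 over all 11381 tested genes. Of the 40, 28 were above 0 (70%, against 56% of all genes). In 6 the low-salt arrays were all higher than the controls (15%, against 5.66%), and 0 had them all below (against 4.89%). In either direction that was 15%, against 10.6% of all genes. These 6 were PSMA5, PSMD3, PSMD8, PSMD10, PSMD14 and PSMG2. At an unadjusted p under 0.05 were 4 genes (10%), all higher, against 10.5% of all genes (5.57% higher and 4.89% lower). This gene count, too, is near the background and is not a result about the proteasome. Signs and sizes hinged on the scaling between arrays. On the deposited scale the proteasome median was 0.27, where that of all tested probe sets was -0.18. With equalised array medians these were 0.70 and 0.26, against 0.15 and 0.04 after quantile normalization. The 1627 genes at least as bright as the median proteasome gene had a median of 0.05 after quantile normalization, 0.16 on the deposited scale and 0.60 with equalised medians. The gap of the proteasome genes to those genes was 0.10 after quantile normalization and 0.11 on either other scale. The dimmer proteasome genes, PSMD3 among them, have no genes of like brightness in that comparison. Without low salt 2 the proteasome median was 0.09 and that gap 0.04.

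**Figure D1:**
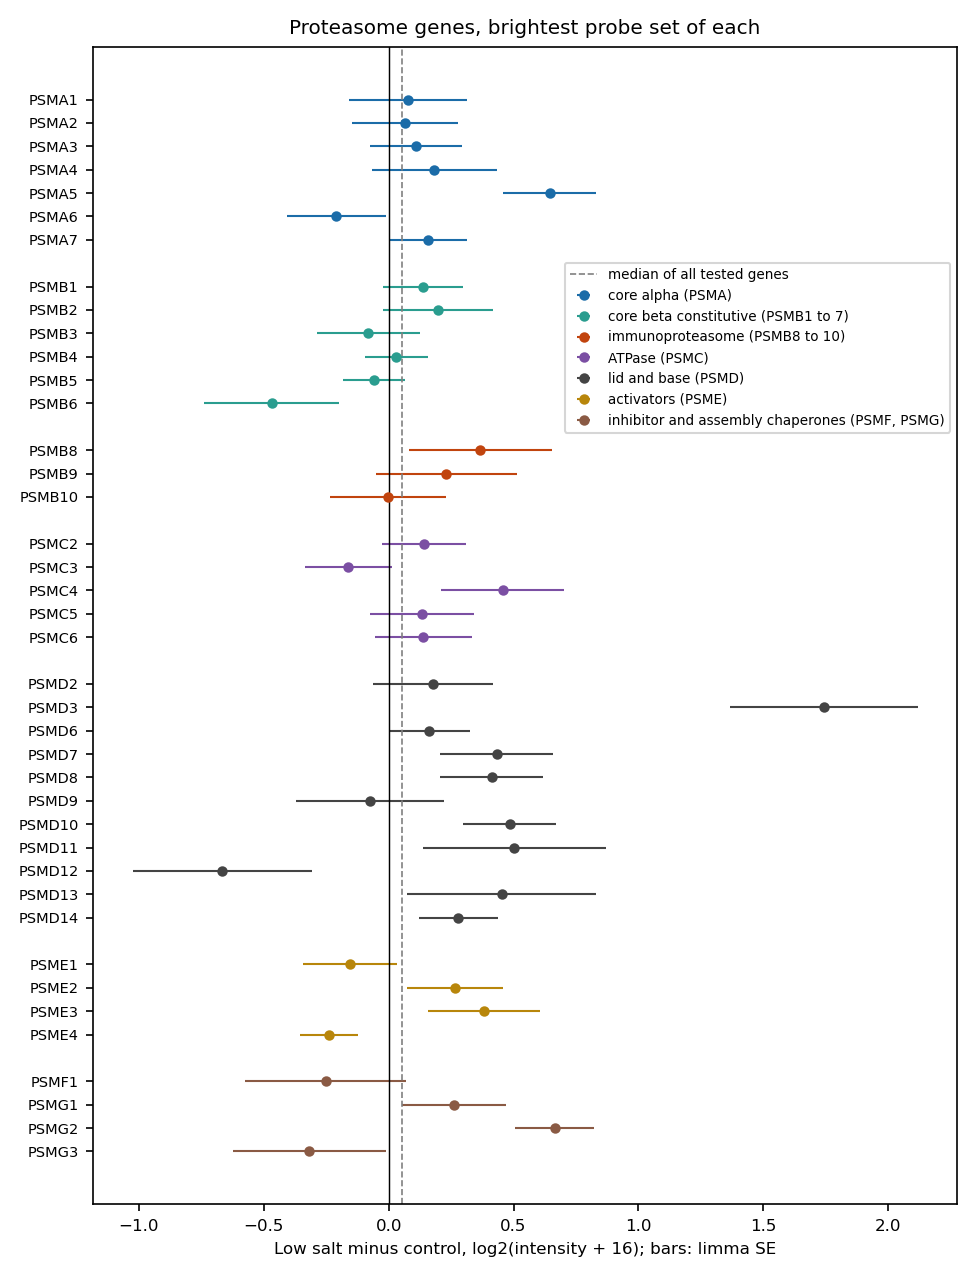
Change of each of the 40 tested proteasome genes (low salt minus control, log2 of intensity + 16; brightest probe set, points; limma SE, bars), ordered by class and number. PSMD3 stands at 1.74, the other genes lie between -0.67 and 0.66, and the dashed line marks the median of all tested genes at 0.05.

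The PSMD symbols name the non-ATPase subunits and assembly chaperones, of which PSMD9 and PSMD10 were tested. Of the 11 tested PSMD genes, 9 had a change above 0, against 56% of all tested genes. Their median was 0.41 (quartiles 0.17 and 0.47), and 0 passed the adjusted p. Without the chaperones 8 of 9 were above 0, with a median of 0.41. PSMD3, a scaffold subunit of the lid, had the smallest p of all members. Its signal was 6.84, 7.44, 7.14 and 7.70 in low salt 1, 2, 3 and 4, against 4.99, 5.16 and 6.46 in control 1, 3 and 4. The groups did not overlap, and control 4 came nearest to the low-salt arrays. The change was 1.74 ± 0.38 (SE), 3.34-fold, with an adjusted p of 0.0805. Deposited intensity was dim in the controls, with a median of 19.8 against 144 in low salt, so the size depended on the offset and was 2.28 with an offset of 1 and 1.07 with 64. PSMD3 passed without control 4 (change 2.25, adjusted p = 0.00477) and without control 4 and low salt 3 together (2.34, adjusted p = 0.00525), while without control 1 it had an adjusted p of 0.38. The other tested PSMD3 probe set differed by -0.15 ± 0.42 (SE), and the remaining pair was too dim to be tested.

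PSMD10 encodes gankyrin, a chaperone that helps assemble the ATPase ring. Its brightest probe set read 9.85, 9.65, 9.93 and 10.27 in low salt 1 to 4, against 9.34, 9.55 and 9.44 in control 1, 3 and 4. These groups did not overlap, though low salt 2 and control 3 came within about 0.10 of each other. The change was 0.48 ± 0.19 (SE), with an adjusted p of 0.373. A second PSMD10 probe set differed the other way, by -0.62 ± 0.28 (adjusted p = 0.446), and the third by 0.08, so the gene has no single direction on this array.

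PSMD14 encodes the metalloprotease of the lid that cuts ubiquitin chains off the substrate. Its probe set stood at 10.13, 10.35, 10.40 and 10.48 in low salt 1 to 4 and at 10.02, 10.08 and 10.09 in control 1, 3 and 4. The low-salt arrays were all higher, by 0.28 ± 0.16 (SE, adjusted p = 0.548), but the second PSMD14 probe set differed by -0.14. PSMD8, a small lid subunit, had 9.01, 9.34, 9.04 and 9.17 in low salt 1 to 4, against 8.98, 8.77 and 8.43 in control 1, 3 and 4. Its change was 0.41 ± 0.21 (SE, adjusted p = 0.491), and its other probe set agreed in sign at 0.24.

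The other lid subunits PSMD7, PSMD11 and PSMD13 differed by 0.43, 0.50 and 0.45 with overlapping groups, and their second probe sets by 0.10, 0.15 and 0.06. The lid subunit PSMD6 and the base subunit PSMD2, a ubiquitin receptor scaffold, differed by 0.16 and 0.18. PSMD9, like PSMD10 an assembly chaperone of the ATPase ring, differed by -0.07 in its brightest probe set and by 0.77 in a dimmer one. PSMD12 was the only lid subunit below 0, at -0.67 ± 0.36 (SE, adjusted p = 0.524). Its signal was 8.58, 7.20, 8.26 and 9.12 in low salt 1 to 4, against 9.13, 9.13 and 8.62 in control 1, 3 and 4, and low salt 2 lay far below the other 6 arrays. PSMD12 and PSMD13 had the widest spread within groups of the 40 genes, at SDs of 0.65 and 0.69, while PSMB4 had the narrowest, at 0.07.

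The assembly chaperones PSMG1, PSMG2 and PSMG3 help line up the alpha ring, and PSMF1 encodes an inhibitor of the core. PSMG2 had the second smallest p of all members. Its brightest probe set read 11.64, 12.28, 11.79 and 11.87 in low salt 1 to 4, against 11.11, 11.41 and 11.18 in control 1, 3 and 4. Every low-salt value exceeded every control value, and the gap between the groups, from low salt 1 to control 3, was narrower than the spread within low salt. The change was 0.66 ± 0.16 (SE), 1.58-fold, with an adjusted p of 0.123, and its other tested probe set differed by 0.16 ± 0.22. With 1 array left out the change ran from 0.53 to 0.75.

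PSMG1, the partner of PSMG2, stood at 9.76, 10.40, 9.69 and 10.40 in low salt 1 to 4, against 9.84, 9.85 and 9.71 in control 1, 3 and 4. Here low salt 2 and 4 were high and the other low-salt arrays lay among or below the controls, for a change of 0.26 ± 0.21 (SE, adjusted p = 0.677). PSMG3 differed by -0.32 ± 0.31 in its brighter probe set and by -1.52 ± 0.51 in the dimmer one (adjusted p = 0.307), whose median intensity was 12.6 in low salt and 131 in controls. PSMF1 differed by -0.25 ± 0.32. Over these 4 genes the median change was 0.00, with 2 above and 2 below 0.

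**Figure D2:**
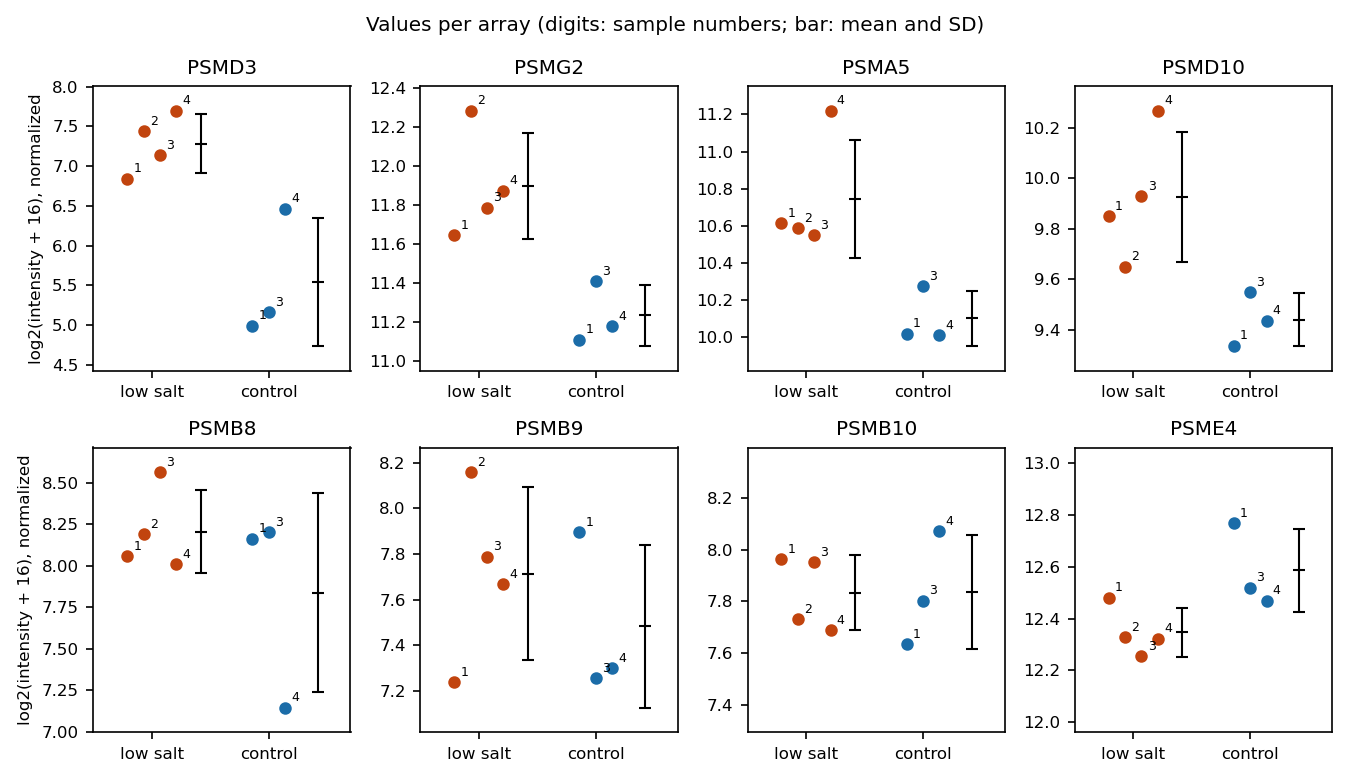
Signal of 8 proteasome genes on each array (brightest probe set, normalized log2 of intensity + 16; low salt left, control right, digits give the sample number, bars the mean and SD). The groups do not overlap in PSMD3, PSMG2, PSMA5 and PSMD10, and they overlap in PSMB8, PSMB9, PSMB10 and PSME4; each panel has its own axis.

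Of the 7 alpha subunit genes of the core, 6 had a change above 0, against 56% of all tested genes, with a median of 0.11. PSMA5 alone had an unadjusted p under 0.05, against 10.5% of all tested genes. PSMA5 read 10.61, 10.59, 10.55 and 11.22 in low salt 1 to 4, against 10.02, 10.27 and 10.01 in control 1, 3 and 4. Low salt 4 was high and the 3 other low-salt arrays lay close together, all above the controls. The change was 0.64 ± 0.19 (SE), 1.56-fold, with an adjusted p of 0.237, and 0.48 without low salt 4. The other PSMA5 probe sets pointed the same way, at 0.44 ± 0.24 and 2.20 ± 0.79. The last of these, at 8.78, 5.15, 9.08 and 5.73 in low salt 1 to 4 and 4.57, 4.89 and 5.48 in control 1, 3 and 4, was far above the rest on low salt 1 and 3 alone, and its groups overlapped.

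PSMA3, the brightest alpha probe set, stood at 11.35, 11.36, 11.64 and 10.96 in low salt 1 to 4, against 11.03, 11.04 and 11.59 in control 1, 3 and 4. The highest arrays of the 2 groups were low salt 3 and control 4, and the change was 0.11 ± 0.18 (SE, adjusted p = 0.871). PSMA6 was the 1 alpha gene below 0, at 8.83, 8.45, 8.81 and 8.75 in low salt 1 to 4 and 8.80, 9.02 and 8.93 in control 1, 3 and 4. Its change of -0.21 ± 0.20 (adjusted p = 0.736) turned to 0.29 with array medians set equal. PSMA1, PSMA2, PSMA4 and PSMA7 differed by 0.08, 0.07, 0.18 and 0.16, with SEs from 0.16 to 0.25. The alpha median changed sign, to -0.01, without low salt 2.

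The constitutive beta subunits held no direction, with 3 of 6 genes above 0 and a median of -0.01. PSMB5, which carries the chymotrypsin-like activity, had 11.98, 11.94, 12.04 and 12.30 in low salt 1 to 4, against 12.02, 12.16 and 12.20 in control 1, 3 and 4. The groups overlapped, and the change of -0.06 ± 0.12 (SE, adjusted p = 0.904) was 0.04 with the values as deposited. Its dimmer probe sets differed by 0.21 and 0.06. PSMB6, which carries the caspase-like activity, had 7.82, 7.90, 7.52 and 8.10 in low salt 1 to 4, against 8.20, 8.84 and 7.87 in control 1, 3 and 4. Control 3 was high and control 4 lay among the low-salt arrays, for a change of -0.47 ± 0.27 (adjusted p = 0.557). It ran from -0.70 to -0.20 with 1 array left out, the smallest without control 3.

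PSMB2, a structural beta subunit, read 8.45, 8.55, 8.04 and 8.56 in low salt 1 to 4 and 8.18, 8.21 and 8.22 in control 1, 3 and 4. Low salt 3 alone fell below the controls, and the change was 0.20 ± 0.22 (adjusted p = 0.782). PSMB1 and PSMB4 differed by 0.14 and 0.03. PSMB3 differed by -0.08 in its brightest probe set and by 0.67 ± 0.25 in its dimmest one (adjusted p = 0.362), where the groups did not overlap.

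In the immunoproteasome genes the groups overlapped in all 3 brightest probe sets. PSMB8, which replaces PSMB5, read 8.06, 8.19, 8.56 and 8.01 in low salt 1 to 4, against 8.16, 8.20 and 7.15 in control 1, 3 and 4. Control 4 lay well below the 6 other arrays. The change of 0.37 ± 0.29 (SE, adjusted p = 0.668) was 0.02 without control 4 and -0.10 without control 4 and low salt 3 together. PSMB9, which replaces PSMB6, read 7.24, 8.16, 7.79 and 7.67 in low salt 1 to 4, against 7.90, 7.26 and 7.30 in control 1, 3 and 4. Low salt 1 was the lowest and low salt 2 the highest of their group, and control 1 lay above the other controls. The change was 0.23 ± 0.28 (adjusted p = 0.807), 0.44 without control 1 and 0.080 without low salt 2. The median of the 3 immunoproteasome genes, 0.23, followed PSMB9 in both cases.

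PSMB10, which replaces PSMB7, had 7.96, 7.73, 7.95 and 7.69 in low salt 1 to 4 and 7.64, 7.80 and 8.07 in control 1, 3 and 4. The groups covered the same range, with a change of 0.00 ± 0.23 (SE, adjusted p = 0.998). Its dimmer probe set was the 1 member whose low-salt values all lay below the controls, by -0.77 ± 0.33 (adjusted p = 0.414), at median intensities of 14.3 in low salt and 50.9 in controls. Set against its constitutive counterpart on the same array, PSMB8 relative to PSMB5 differed by 0.42 between the groups, with SDs of 0.34 over low salt (n = 4) and 0.66 over controls (n = 3). That difference was 0.044 without control 4 and -0.084 without control 4 and low salt 3 together. PSMB9 relative to PSMB6 differed by 0.70, with SDs of 0.45 over low salt and 0.68 over controls, and by 0.32 without control 3. The groups overlapped in both ratios, and neither difference was tested.

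Leukocytes and macrophages are rich in immunoproteasome, and their markers are given beside these genes. The leukocyte list had 11 of 14 genes tested, 5 above 0, with a median of -0.03 and summed deposited intensity between 571 and 835 in low salt and between 773 and 1298 in controls. In it CD4 differed by -1.95 ± 0.46 (adjusted p = 0.121) in its brighter probe set and by 0.06 in the other, and CD79A was near 0, at a median intensity of 3.09. The macrophage list had 13 of 13 genes tested, 10 above 0 against 56% of all tested genes, with a median of 0.24. Its sums lay between 4526 and 5386 in low salt and between 3447 and 5752 in controls. In it C1QB, a complement chain, differed by 1.01 ± 0.26 without overlap (adjusted p = 0.165) and C1QC by 0.88 ± 0.36 (adjusted p = 0.392). FCER1G, an Fc receptor chain, differed by -1.01 ± 0.44 (adjusted p = 0.421). It was dim, with means of 4.95 in low salt and 5.96 in controls, and was tested only through its control values. Endothelial, fibroblast and smooth muscle lists had medians of -0.10, -0.02 and 0.05. The part of these cells in the PSMB8 to PSMB10 values was not tested.

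The ATPases had a change above 0 in 4 of 5 genes, against 56% of all tested genes, and a median of 0.14. None had an unadjusted p under 0.05, against 10.5% of all tested genes. PSMC4 had the smallest p among them, at 8.27, 8.24, 7.86 and 8.47 in low salt 1 to 4, against 7.90, 7.95 and 7.41 in control 1, 3 and 4. Low salt 3 lay among the controls, control 4 was the lowest array, and the change was 0.46 ± 0.25 (SE, adjusted p = 0.525). A dimmer PSMC4 probe set differed by 0.69 ± 0.34 without overlap. PSMC3 stood at 10.94, 10.41, 10.79 and 10.34 in low salt 1 to 4 and at 10.71, 10.89 and 10.75 in control 1, 3 and 4, with low salt 2 and 4 below and low salt 1 above all controls. Its change was -0.16 ± 0.17 (adjusted p = 0.773), and 0.43 with array medians set equal. PSMC2, PSMC5 and PSMC6 differed by 0.14, 0.13 and 0.14.

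The activators split in sign. PSME1 and PSME2 encode the paired subunits of an interferon-induced activator ring. PSME1 read 11.96, 11.79, 11.10 and 11.58 in low salt 1 to 4, against 11.58, 12.01 and 11.69 in control 1, 3 and 4. Low salt 3 was the lowest array, and the change of -0.15 ± 0.19 (SE, adjusted p = 0.806) was 0.02 without it. PSME2 read 10.08, 10.53, 10.66 and 10.22 in low salt 1 to 4, against 9.85, 10.39 and 10.08 in control 1, 3 and 4, with overlap and a change of 0.27 ± 0.19 (adjusted p = 0.642). The brightest probe sets of this pair thus had opposite signs, and neither passed the adjusted p. The other PSME1 probe sets differed by -0.20, 0.09 and 0.30, and the other tested one of PSME2 by 0.35.

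PSME3, a nuclear activator, had 8.30, 8.43, 7.96 and 8.19 in low salt 1 to 4, against 7.84, 7.97 and 7.72 in control 1, 3 and 4. Only low salt 3 and control 3 met, within 0.01 of each other, and the change was 0.38 ± 0.22 (SE, adjusted p = 0.567). PSME4, a single-chain activator, had 12.48, 12.33, 12.26 and 12.32 in low salt 1 to 4, against 12.77, 12.52 and 12.47 in control 1, 3 and 4. Low salt 1 lay just above control 4 and the other low-salt arrays below all controls. The change was -0.24 ± 0.12 (adjusted p = 0.472), and 0.24 with array medians set equal, while its dimmer probe sets differed by -0.14 and 0.01.

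**Figure D3:**
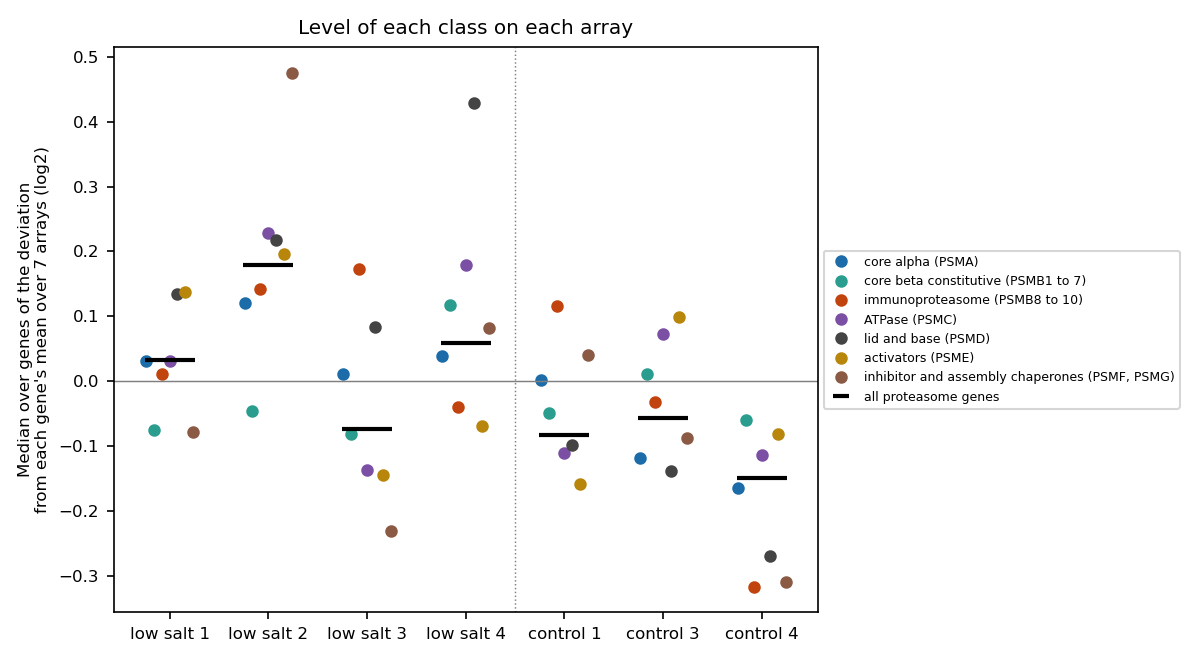
Level of each proteasome class on each array, as the median over its genes of the deviation from the gene's mean over all 7 arrays (log2), with low-salt arrays left and controls right. Black bars give all 40 genes, from -0.07 to 0.18 in low salt and from -0.15 to -0.06 in controls. With the brightest probe set of each gene, the PSMD genes, dark gray, lie above 0 on the 4 low-salt arrays and below 0 on the 3 controls. Over all 22 tested PSMD probe sets (not shown) control 3 was at 0.02 and low salt 3 at 0.03.

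Array by array, the median deviation of all 40 genes was 0.03, 0.18, -0.07 and 0.06 in low salt 1 to 4 and -0.08, -0.06 and -0.15 in control 1, 3 and 4. Low salt 3 lay between the controls, and control 4 was the lowest array. In both the alpha and the PSMD genes the groups did not meet. The alpha genes stood at 0.03, 0.12, 0.01 and 0.04 in low salt 1 to 4 and at 0.0013, -0.12 and -0.16 in control 1, 3 and 4, so low salt 3 and control 1 were about level. The PSMD genes stood further apart, at 0.13, 0.22, 0.08 and 0.43 in low salt 1 to 4 and -0.10, -0.14 and -0.27 in control 1, 3 and 4. That distance belonged to the brightest probe sets. Over all 22 tested PSMD probe sets the low-salt levels were 0.08, 0.18, 0.03 and 0.19, and the controls -0.06, 0.02 and -0.22. There low salt 3 and control 3 were about level, and the median change was 0.21. With the mean of all tested probe sets of a gene in place of the brightest, the PSMD median was 0.26. With the brightest it was also 0.26 without control 4, and 0.29 without control 4 and low salt 3 together.

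Probe sets of the same gene often differed by as much as the groups did. Of the 27 genes with 2 or more tested probe sets, 17 had all of them on 1 side of 0 and 10 had both signs. The median range of change within a gene was 0.33, more than the median change of any class except the PSMD genes. It reached 1.90 in PSMD3, and 1.76 in PSMA5, whose probe sets shared a sign. The dimmest PSMA5 probe set and the dimmer tested one of PSMD9 were tested only through their low-salt values. The genes with like changes in all probe sets were PSMA2 (range 0.04), PSME2 (0.09), PSMB8 (0.13), PSMD2 (0.13) and PSMG1 (0.16), named after their values were seen.

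**Figure D4:**
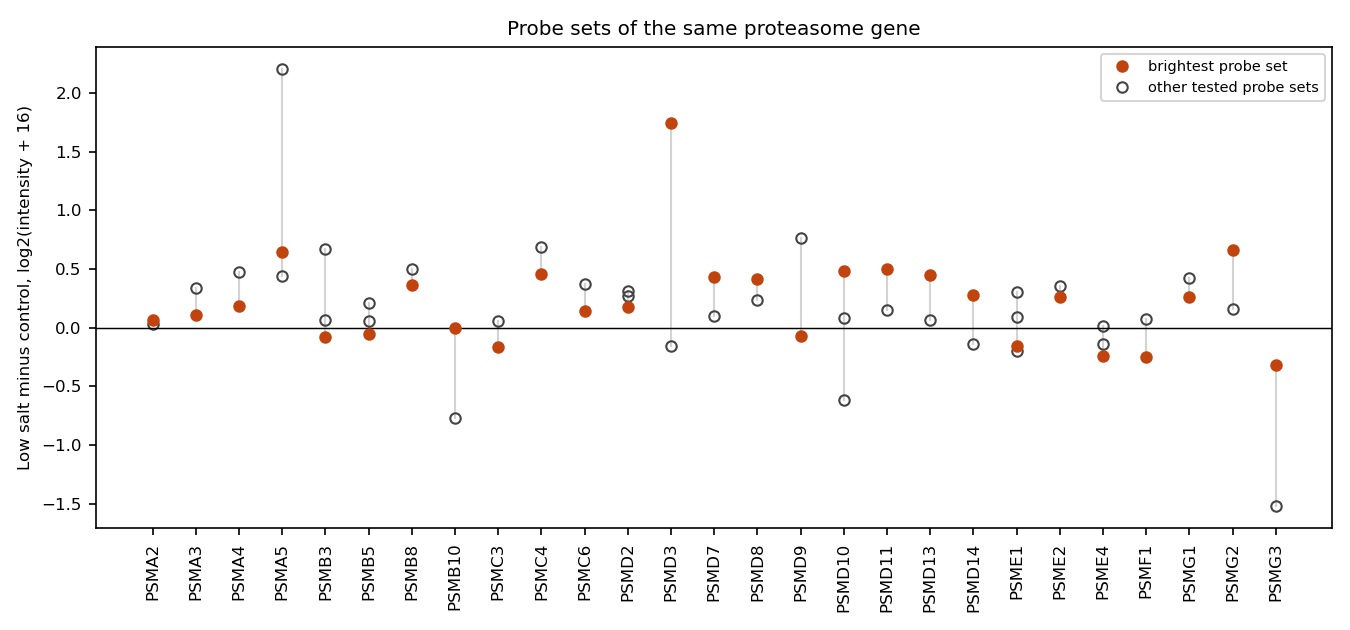
Change of each tested probe set (low salt minus control, log2 of intensity + 16) for the 27 proteasome genes with 2 or more, with the brightest probe set filled and the others open. PSMD3 spans 1.90 and PSMA5 1.76, while PSMA2 spans 0.04.

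Genes around the proteasome were followed in lists drawn from general knowledge, and 0 of their genes passed the adjusted p. Among ubiquitin genes, the activating enzymes and deubiquitinases, 8 of 10 genes were tested, all 8 above 0, with a median of 0.13. Of all tested genes 56% were above 0, with a median of 0.05. Of the 8 tested, 1 had an unadjusted p under 0.05, against 10.5% of all tested genes. That gene was UBA1, the main ubiquitin-activating enzyme, at 1.05 ± 0.44 (SE, adjusted p = 0.4) with overlapping groups, while its other probe sets differed by -0.36 and 0.46. USP14, a deubiquitinase bound to the regulatory particle, differed by 0.23 ± 0.15 without overlap, though another of its probe sets differed by -0.62. The polyubiquitin gene UBB differed by 0.07.

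Among shuttle factors and the VCP segregase, which extracts ubiquitin-tagged proteins and hands them to the proteasome, 10 of 13 genes were tested and the median was -0.14. NPLOC4 and UFD1, which together form a cofactor of VCP, were the 2 of 10 at an unadjusted p under 0.05 and had no overlap. Of all tested genes, 10.5% had such a p and 10.6% had no overlap. A count this small is not a result about the cofactor. UFD1 read 7.34, 7.71, 7.37 and 7.40 in low salt 1 to 4, against 7.04, 6.52 and 6.66 in control 1, 3 and 4. All low-salt values were higher, by 0.72 ± 0.26 (SE, adjusted p = 0.34). NPLOC4, a dimmer probe set, had 5.59, 6.30, 5.49 and 5.19 in low salt 1 to 4 and 4.35, 4.16 and 4.83 in control 1, 3 and 4. The change was 1.19 ± 0.39 (adjusted p = 0.297). Its mean was 5.64 in low salt and 4.45 in controls, and the control mean lay below that of every tested probe set. NPLOC4 was therefore tested only through its low-salt values, and its place among the 2 depended on the group difference. VCP itself differed by -0.15 ± 0.16.

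Regulators of subunit transcription had 8 of 11 genes tested and a median of -0.10. NFE2L1, the factor that raises subunit transcription when proteasome activity drops, differed by 0.06 ± 0.13 (SE), and KEAP1, which holds the related factor NFE2L2 in check, by 0.87 ± 0.36 (adjusted p = 0.399). IRF1, an interferon-response factor that acts on PSMB9, differed by -0.54 ± 0.46. Of the muscle ubiquitin ligases and their conjugating enzymes, 15 of 19 were tested, and 10 were above 0, against 56% of all tested genes. The median was 0.12, and 0 had an unadjusted p under 0.05, against 10.5% of all tested genes. The atrophy ligases FBXO32 and TRIM63 differed by 0.73 ± 0.38 (adjusted p = 0.513) and 0.04 ± 0.21, and TRIM54 by 0.55 ± 0.28 without overlap.

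In class I antigen processing, which uses peptides cut by the immunoproteasome, 9 of 9 genes were tested with a median of 0.18. TAPBP, which tethers class I molecules to the peptide transporter, differed by 1.02 ± 0.38 (SE, adjusted p = 0.362). It was dim, with means of 5.80 in low salt and 4.78 in controls, and was tested only through its low-salt values. TAP2, a transporter subunit, differed by -0.81 ± 0.34 (adjusted p = 0.406), while TAP1 and B2M differed by 0.41 and 0.18. Control 4 was the lowest of the 7 arrays for TAP1 (6.42), PDIA3 (9.72), the class I light chain B2M (12.23) and PSMB8. For TAP1 the other controls, at 8.24 and 8.06, lay above or among the low-salt values (7.71 to 8.21), so the change of 0.41 rested on control 4. Control 4 was the highest of the 7 for PSMB10 (8.07) and CANX (13.14), and the highest control for TAPBP (5.59) and NLRC5 (5.64). It was the lowest control for TAP2 (6.78) and CALR (10.75), and for ERAP1 (5.89) it lay between the other controls. For PSMB9 (7.30) both low salt 1 and control 3 were lower, so these genes shared no direction on control 4. The list of other proteasome parts and assembly factors had 7 of 10 genes tested, PSMC3IP among them, and a median of -0.01, or 0.06 over the 6 others. In it PAAF1, an ATPase chaperone, differed by -0.47 ± 0.26 without overlap in its brighter probe set and by 0.29 in the other, and the ubiquitin receptor ADRM1 by -0.20 ± 0.25. PSMC3IP, a recombination cofactor set apart above, read 8.21, 8.25, 8.35 and 8.25 in low salt 1 to 4 and 8.88, 8.88 and 8.66 in control 1, 3 and 4. Its low-salt values all lay below the controls, by -0.54 ± 0.20 (adjusted p = 0.357). PSME3IP1 differed by 0.32 ± 0.27 in its brightest probe set.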

How the data were processed

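Total RNA was hybridised to 1-colour Affymetrix canine arrays, and the deposited probe set intensity values came from GCOS per the submitters' processing notes, with the summary method not stated there. The deposited scale puts every array at a 2% trimmed mean near 150 (150.04 to 150.052). From these values log2(intensity + 16) was computed and quantile normalized without the 111 control probe sets. Of the 42924 others the brightest 28616 by mean over all arrays were kept and fitted with limma 3.58.1 (eBayes with a trend) in R 4.3.3, with Benjamini-Hochberg adjustment. On simulated arrays, 71 of 100 probe sets changed by 3 (log2) and 14 of 100 changed by 1 were recovered. Arrays carry no read depth, so their number limits the precision. Members were named by platform symbol; 76 of 89 matched the RefSeq gene table of UU_Cfam_GSD_1.0 by gene number, all with the same symbol. Values per array are given for the 2 genes of smallest p and the brightest gene of each class, the immunoproteasome, activator and catalytic genes, and probe sets without overlap and at least a 2-fold change; PSMD8, PSMD12, the dim PSMA5 probe set, UFD1, NPLOC4, PSMC3IP and the partner and marker genes with values were added after their values were seen. The members and lists were chosen with earlier results of these data known. Alternatives were offsets, scalings, filters, array weights, the methods' t-test, a replicate block and each array left out.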

Additional observations from a re-analysis of the deposited data

Results flagged for a closer look

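The PSMA5 value of low salt 4 was far from the other low-salt arrays. It stood at 11.22, where the nearest other low-salt array had 10.61 and the farthest 10.55, so the gap was 0.906 of the whole range, above the limit of 0.829 for 4 samples. The 20 probe sets named by rule were examined this way, and chance flags about 1 in 20 groups. Without low salt 4 the PSMA5 change was 0.48.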

How the results depend on the processing

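The count of proteasome probe sets past an adjusted p of 0.05, 0 here, was 1 with array medians set equal, with array weights and without control 4 and low salt 3 together, and 0 to 1 with 1 array left out. That probe set was PSMD3 each time, at 1.94, 1.87 and 2.34, and 2.25 without control 4. The 6 higher ones at an unadjusted p under 0.05 became 10 as deposited and 18 with equal medians, and 4 to 11 with 1 array left out (11 without low salt 3, 4 without low salt 4). The 3 lower ones became 1 with equal medians, the t-test, the replicate block and without control 4 and low salt 3 together, and 0 to 3 with 1 array left out (0 without control 1, 1 without control 3). Leaving out 2 arrays together was chosen after seeing the data, as were the fit of 6 arrays without the block, the ratios with arrays left out and the medians without PSMD9 and PSMD10 or without PSMC3IP. As deposited and with equal medians the median change was 0.27 and 0.70 for all 40 genes, 0.26 and 0.70 for PSMA and 0.11 and 0.54 for PSMB1 to 7. With equal medians it was 0.55 for PSMB8 to 10, 0.70 for PSMC, 0.85 for PSMD, 0.60 for PSME and 0.34 for PSMF and PSMG. With the mean over probe sets of a gene it was 0.10 for PSMB1 to 7 and 0.26 for PSMD. With 1 array left out the medians ran from 0.09 to 0.17 for all 40 genes, -0.011 to 0.19 for PSMA, -0.06 to 0.03 for PSMB1 to 7, 0.080 to 0.44 for PSMB8 to 10, 0.09 to 0.22 for PSMC, 0.26 to 0.45 for PSMD, -0.0024 to 0.19 for PSME and -0.04 to 0.12 for PSMF and PSMG. Signs of single genes turned with equal medians for PSMA6 (0.29), PSMB5 (0.47, and 0.041 as deposited), PSMB10 (0.37), PSMC3 (0.43), PSME1 (0.43) and PSME4 (0.24). PSMB10, at 0.00, was 0.010 with array weights, 0.031 with and without the replicate block on 6 arrays, 0.080 without control 4 and low salt 3 together and -0.10 to 0.12 with 1 array left out. PSMB8 was -0.10 without control 4 and low salt 3 together, and PSME1 ran from -0.27 to 0.016 with 1 array left out. The cause of these shifts was not tested. No pairing by the numbers in the titles was seen: same-numbered arrays correlated at 0.07, -0.26 and -0.18 in their deviations. Low salt 3 correlated best with control 4. The pairs numbered 3 and 4 each include 1 of these arrays, so the check cannot exclude a pairing. With the replicate block no member passed the adjusted p. The block used only numbers present in both groups, so its 6 arrays were all but low salt 2. With that block, or with the same 6 arrays and no block, the PSMA median was -0.012, and without low salt 2 it was -0.011. For the medians and changes these settings are therefore not separate alternatives.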
